A study of Rattus norvegicus with 9 samples.

Results

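Complement components and regulators were read in ischaemic rat kidneys by 10 probes for 9 genes, out of 30367 probes for 26115 gene names on the array. The members were all gene probes named C1qa, C1qb, C1qc, C3, Cfb, Cfi, Serping1, Cd55 or Cd59. The rule itself uses names and no measured value, but the list was drawn up with earlier results of these data known. Each array held the RNA of 1 kidney. The kidneys came from Fisher F344 rats and had 20 min. of warm ischaemia in both groups, by clamping of the abdominal aorta according to the labels and of the renal artery according to the methods of the paper. The 5 control kidneys are non-perfused by their treatment label and in the paper, and are called NP here. Their sample titles give instead a perfusion of 4 hrs at 4°C with Belzer solution (BS), a cold preservation fluid, so that the labels are divided. The 4 MSC kidneys were perfused for 4 hrs at 4°C with BS to which 3000000 mesenchymal stromal cells (MSC) had been added. If the treatment label holds, MSC and NP kidneys differ in the perfusion as well as in the cells, and these cannot be told apart. The MSC were grown from bone marrow of transgenic Sprague Dawley rats that express EGFP, and their rat RNA cannot be told apart from that of the kidney on these probes. The MSC array that the authors discarded for poor quality was not analysed here. The age of the rats was not given in the sources used here.

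Complement is a cascade of plasma and cell surface proteins that marks cells for uptake and lysis. C1q, built of A, B and C chains and made mainly by macrophages, starts the classical pathway on bound antibody or dying cells, and C3 is the protein on which all pathways converge. In the kidney, tubular cells make C3 and factor B locally, and complement deposited along tubules after ischaemia is a well-known part of reperfusion injury. Cd55 and Cd59 on the cell membrane and Cfi and C1 inhibitor in the fluid phase hold the cascade back.

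The probes of C1qa, C1qc and C3 are printed as examples. Each is a 60-base oligonucleotide, given as in the array files from 5′ to 3′, with an open reading frame over its whole length. No exon annotation of rn4 was used here.
C1qa: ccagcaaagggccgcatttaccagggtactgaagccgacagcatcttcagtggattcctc
C1qc: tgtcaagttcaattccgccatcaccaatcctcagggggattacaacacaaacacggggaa
C3: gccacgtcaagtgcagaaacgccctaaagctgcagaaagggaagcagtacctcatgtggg
On the rat build rn4, the files place the C1qa probe at chr5:155662578-155662637 on the minus strand, starting at base 697 of the transcript. The C1qc probe lies at chr5:155656638-155656697 (minus strand, base 435) and the C1qb probe, of which no sequence is shown, at chr5:155647530-155647589 (minus strand, base 1028), so that the C1q genes are neighbours. The C3 probe is on chrUn:64513437-64513496 (minus strand, base 4797), a part of rn4 not placed on a chromosome.

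The C1q chains varied together over the arrays, so a C1q promoter is shown, from RefSeq on the build GRCr8. The 250 bases upstream of the start of C1qb (chr5:154407828-154408077) were read on the minus strand, which is the strand of the gene. Capitals mark matches on either strand to GAGGAA, a core of sites for PU.1, a transcription factor of macrophages and other myeloid cells.
C1qb: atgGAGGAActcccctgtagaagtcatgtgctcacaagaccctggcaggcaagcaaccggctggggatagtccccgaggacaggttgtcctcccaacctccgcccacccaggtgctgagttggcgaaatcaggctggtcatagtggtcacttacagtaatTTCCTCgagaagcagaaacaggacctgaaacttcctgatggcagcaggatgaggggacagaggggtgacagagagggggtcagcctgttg
The C1qb sequence held 2 matches to GAGGAA, and the same stretch of C1qa (chr5:154419934-154420183, minus strand) held 0. Other spellings of PU.1 sites were not searched, so that C1qa cannot be said to lack them. Of 33469 rat promoters of the same length, 23.3% held GAGGAA on either strand, so that this short word is frequent. The matches describe the letters and do not show binding. C1qc was not matched in the promoter table.

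All values are log2 intensities after normalization between arrays, so that a difference of 1 is a doubling. Of the gene spots, 65.6% to 74.3% were well above background, and no spot was saturated (0 on every array). The arrays were on 2 slides. NP replicates 1, 2 and 3 shared a slide with MSC replicates 1 and 2, and the others were on slide 2. The kidney markers used as a check, among them Umod, Slc34a1, Lrp2, Aqp2, Slc12a1 and Slc12a3, passed the filter on low values in 10 of 10 cases. As the arrays read bulk kidney RNA, fewer cells of a type and less RNA per cell cannot be told apart.

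Of the 10 member probes 9 passed the filter, 1 for each gene, and all 9 members were tested. In the limma fit 0 of 9 members passed both thresholds of the study, which are a fold change of more than 1.5 and an FDR below 0.05, and the share among all 13769 genes tested was 0% as well. At an unadjusted p under 0.05 limma had 1609 of these genes. C1qa, C1qb, C1qc, C3, Cfi and Cd59 had higher means in MSC than in NP kidneys, and Cfb, Serping1 and Cd55 had lower means. Thus 6 of 9 members were higher, against 48.6% of all genes. The median log2 fold change was 0.25 (range -0.09 to 0.42), against -0.01 over all genes tested. At an unadjusted p under 0.05 there was 1 member, Cfi, higher in MSC kidneys, and 6.59% of all genes were past that limit in the same direction (11.7% in either direction). The lowest FDR among the members was 0.419. NP and MSC values overlapped for every member (0 of 9 without overlap), while 5.32% of all genes had no overlap.

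**Figure D1:**
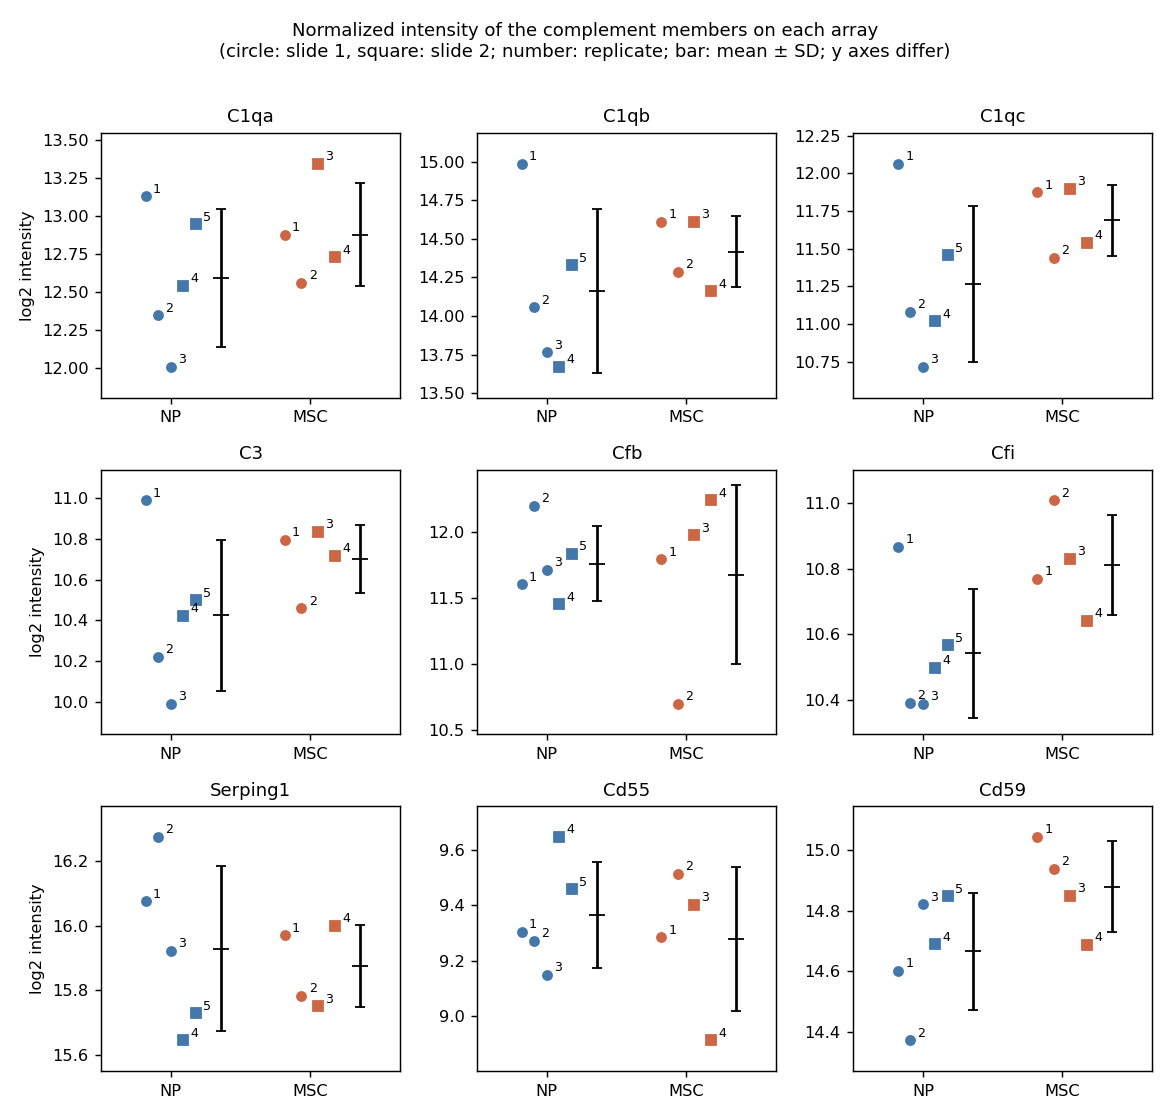
Normalized log2 intensity (y axes, which differ between panels) of the 9 members in the 5 NP and 4 MSC kidneys (x axes), 1 point per array with its replicate number, circles for slide 1 and squares for slide 2, and bars for mean ± SD. NP and MSC points overlap in every panel, and NP replicate 1 is the highest array for C1qb, C1qc and C3.

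The spread between kidneys of the same group was wide for C1q, C3 and factor B. The median SD within groups was 0.30 for the members and 0.18 for all genes. The SD of Cfb lay at percentile 94.2 of all genes, and those of C1qb, C1qc and C1qa at 91.2, 90.9 and 90.1. By contrast, Cd59 lay near the middle, at 48.8, with Cfi beside it. Standard errors of the difference were 0.12 for Cfi and Cd59 and 0.24 or 0.25 for the C1q chains.

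C1qa encodes the A chain of C1q. Its log2 intensities were 13.13, 12.34, 12.00, 12.54 and 12.94 in NP replicates 1 to 5 and 12.87, 12.56, 13.34 and 12.73 in MSC replicates 1 to 4. MSC replicate 3 was the highest array and NP replicate 3 the lowest, and the other MSC kidneys lay within the NP range. MSC kidneys had a mean of 12.88 ± 0.34 (SD, n = 4) against 12.59 ± 0.45 (SD, n = 5) for NP kidneys. The difference of 0.28 (SE 0.24, limma FDR 0.656) did not exceed the spread between kidneys (two-sided exact permutation test over arrays, p = 0.349).

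C1qb encodes the B chain. It had 14.99, 14.06, 13.76, 13.67 and 14.33 in the NP kidneys and 14.61, 14.29, 14.61 and 14.16 in the MSC kidneys. NP replicate 1 was above all other arrays, and the 4 MSC values lay inside the NP range. On the log2 scale the MSC mean was 0.25 above the NP mean (SE 0.25, limma FDR 0.709, exact permutation p = 0.381).

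For C1qc, the C chain, the NP values were 12.07, 11.08, 10.71, 11.02 and 11.46 and the MSC values 11.87, 11.44, 11.90 and 11.54. Again only NP replicate 1 was above the MSC kidneys, and NP replicate 5 lay between them. C1qc had the largest log2 fold change of the members, 0.42 (95% interval -0.12 to 0.97, limma FDR 0.525, exact permutation p = 0.198). The arrays ran in a similar order for the chains: NP replicate 1, NP replicate 5, MSC replicate 1 and MSC replicate 3 were the top arrays for C1qa and C1qb, and NP replicate 1, MSC replicate 1, MSC replicate 3 and MSC replicate 4 for C1qc. Between the highest and the lowest array the fold was 2.53 for C1qa, 2.49 for C1qb and 2.55 for C1qc, wider than any difference between the group means.

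C3, the central component, had 10.99, 10.22, 9.99, 10.42 and 10.50 in the NP kidneys. The MSC values were 10.80, 10.46, 10.83 and 10.72. NP replicate 1 was the highest and NP replicate 3 the lowest of the 9 arrays, as for C1qc. The mean of C3 was 0.28 higher in MSC kidneys (SE 0.18, 95% interval -0.13 to 0.68, limma FDR 0.566), a difference that did not exceed the spread between kidneys (exact permutation p = 0.206).

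The differences of the C1q chains and C3 were larger without NP replicate 1. When this kidney was left out, 4 members (C1qb, C1qc, C3 and Cfi) had an unadjusted p under 0.05, where 16.7% of all genes did so. The log2 fold changes were then 0.46 for C1qb, 0.62 for C1qc, 0.42 for C3 and 0.35 for Cfi, and the smallest FDR was 0.170 from limma, so that no member passed the threshold. Without NP replicate 3, the lowest array for C1qa, C1qc and C3, the differences were smaller than over all arrays. They were then 0.14 for C1qa, 0.16 for C1qb, 0.28 for C1qc and 0.17 for C3. Nothing in the labels sets NP replicate 1 apart.

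Macrophage markers moved with C1q over the arrays. The macrophage score is the mean deviation of the tested markers from their means over the 9 arrays, and 12 of 17 listed markers were tested. It was 0.24, -0.10, -0.46, -0.07 and 0.11 in the NP kidneys and 0.06, -0.14, 0.28 and 0.09 in the MSC kidneys. The highest arrays were MSC replicate 3 and NP replicate 1 and the lowest was NP replicate 3, as for C1qa. Of the 12 markers 10 were higher in MSC kidneys and 0 had an unadjusted p under 0.05 (median log2 fold change 0.20). Cd163, Mrc1, Msr1 and Mpeg1 did not pass the filter on low values. The part of macrophages in the C1q values was not tested.

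Likeness to the mean of the C1q chains was measured by Pearson's r over the 9 arrays for 13760 genes that are no member. The 5 genes most like C1q were Ppp1r8 (r = 0.983), a nuclear regulator of protein phosphatase 1, Fcgr3a (0.968), an Fc receptor, Slc11a1 (0.966), a metal transporter of phagosomes, Cd68 (0.964), a lysosomal glycoprotein of macrophages, and Ctsz (0.963), a lysosomal protease. For C3 they were Emr1 (0.991), the gene of a macrophage surface receptor, then Manba (0.980), Lypd6b (0.962), Lpcat2 (0.957) and Gpr116 (0.957). Not every macrophage marker was like C1q: r was 0.919 for Emr1 and 0.916 for Ctss but -0.76 for Cx3cr1, the fractalkine receptor. These values describe 9 arrays, which share normalization and slides, and carry no test.

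**Figure D2:**
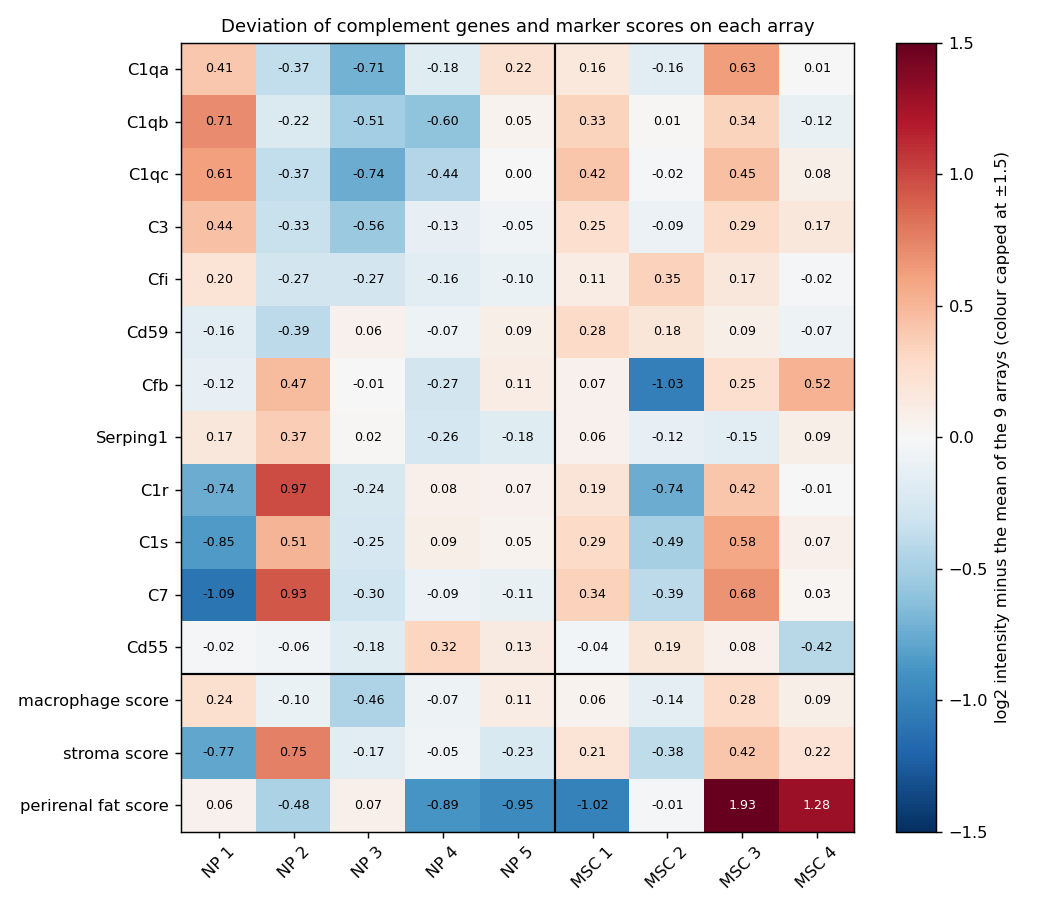
Deviation of the log2 intensity from the mean over the 9 arrays (colour, with the value in each cell) for complement genes and, below the line, scores of marker lists (rows) on each NP and MSC array (columns). The mean of the C1q chains and C3 are both high on NP replicate 1 (0.58 and 0.44) and low on NP replicate 3 (-0.65 and -0.56), while the stroma score is lowest on NP replicate 1 (-0.77).

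Cfb encodes factor B, the protease of the alternative pathway convertase. Its probe lies at chr20:4077743-4077802 of rn4 (plus strand). It had 11.61, 12.20, 11.72, 11.45 and 11.84 in the NP kidneys and 11.80, 10.70, 11.98 and 12.24 in the MSC kidneys. MSC replicate 2 was below every other array and MSC replicate 4 above every other, so that the MSC kidneys enclosed the NP range. The MSC mean minus the NP mean was -0.08 (95% interval -0.72 to 0.55, limma FDR 0.932, exact permutation p = 0.873). The value was -0.59 within the first slide, 0.46 within the second and 0.24 without MSC replicate 2, so that no direction can be given for Cfb.

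Cfi encodes factor I, the plasma protease that inactivates C3b and C4b. It was read by 10 spots per array at chr2:227324985-227325044 (plus strand), where the kept probes of the other members have 2 each. The NP values were 10.87, 10.39, 10.39, 10.50 and 10.57 and the MSC values 10.77, 11.01, 10.83 and 10.64. All MSC kidneys were above NP replicates 2, 3, 4 and 5, and only NP replicate 1 lay among them. The mean was 10.81 ± 0.15 (SD, n = 4) in the MSC group, against 10.54 ± 0.20 (SD, n = 5) for NP. The log2 fold change of Cfi was 0.27 (SE 0.12, 95% interval 0.01 to 0.53). It had an unadjusted p of 0.0450 and an FDR of 0.419 in limma, and the exact permutation test gave p = 0.0714. The difference was 0.34 within slide 1 and 0.20 within slide 2. Cfi was past an unadjusted p of 0.05 in 14 of 26 alternatives with a test. Those that changed only the filter or the choice of probe repeat the same log2 fold change of 0.27, as Cfi has 1 probe. With 1 array left out, Cfi was past that limit only without NP replicate 1 or without MSC replicate 4. The share of all genes past the limit was not taken for most alternatives, so that the count cannot be read as a result about Cfi.

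Serping1 encodes C1 inhibitor, which blocks the proteases of C1. Its probe is at chr3:67968812-67968871 (minus strand). The log2 intensities were 16.08, 16.27, 15.92, 15.65 and 15.73 in the NP and 15.97, 15.78, 15.75 and 16.00 in the MSC kidneys. All MSC values lay inside the NP range. Serping1 had a log2 fold change of -0.05 (95% interval -0.35 to 0.24, limma FDR 0.904, exact permutation p = 0.738). It was -0.21 within slide 1 and 0.19 within slide 2, so that its sign differed between them.

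Cd59 encodes a membrane-anchored protein that stops the assembly of the membrane attack complex. Its probe is at chr3:89244707-89244766 (plus strand), and its accession is now named Cd59b in RefSeq. The NP kidneys had 14.60, 14.37, 14.82, 14.69 and 14.85 and the MSC kidneys 15.04, 14.94, 14.85 and 14.69. Of the MSC values 3 of 4 were above all NP values, MSC replicate 3 by less than 0.01, and MSC replicate 4 lay within the NP range. MSC kidneys were higher by 0.21 on average (SE 0.12, limma FDR 0.50, exact permutation p = 0.119). The difference was 0.39 within the first slide and -0.00016 within the second, and the slides were not tested against each other.

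Cd55, decay-accelerating factor, takes apart the C3 convertases on the cell membrane. The probe that passed the filter lies at chr13:43322246-43322305 (minus strand). It had 9.30, 9.27, 9.15, 9.65 and 9.46 in the NP kidneys and 9.28, 9.51, 9.40 and 8.91 in the MSC kidneys. MSC replicate 4 was the lowest array and NP replicate 4 the highest. Cd55 had a log2 fold change of -0.09 (95% interval -0.40 to 0.22, limma FDR 0.838, exact permutation p = 0.579), with 0.16 within slide 1 and -0.40 within slide 2.

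The other Cd55 probe, at chr13:43336846-43336905 (minus strand), had 1 spot, was well above background on 8 arrays and did not pass the filter. There the MSC mean was 8.46 ± 0.04 (SD, n = 4) and the NP mean 8.40 ± 0.05 (SD, n = 5; exact permutation p = 0.0952). The probes of Cd55 thus had differences of opposite sign, and neither passed the exact test. Among the 5 genes most like Cd55 over the 9 arrays were Tmem220 (r = 0.900), Pbx4 (0.895), Ptpro (0.892), which encodes a phosphatase of podocytes, and Cldn5 (0.888), a claudin of tight junctions.

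**Figure D3:**
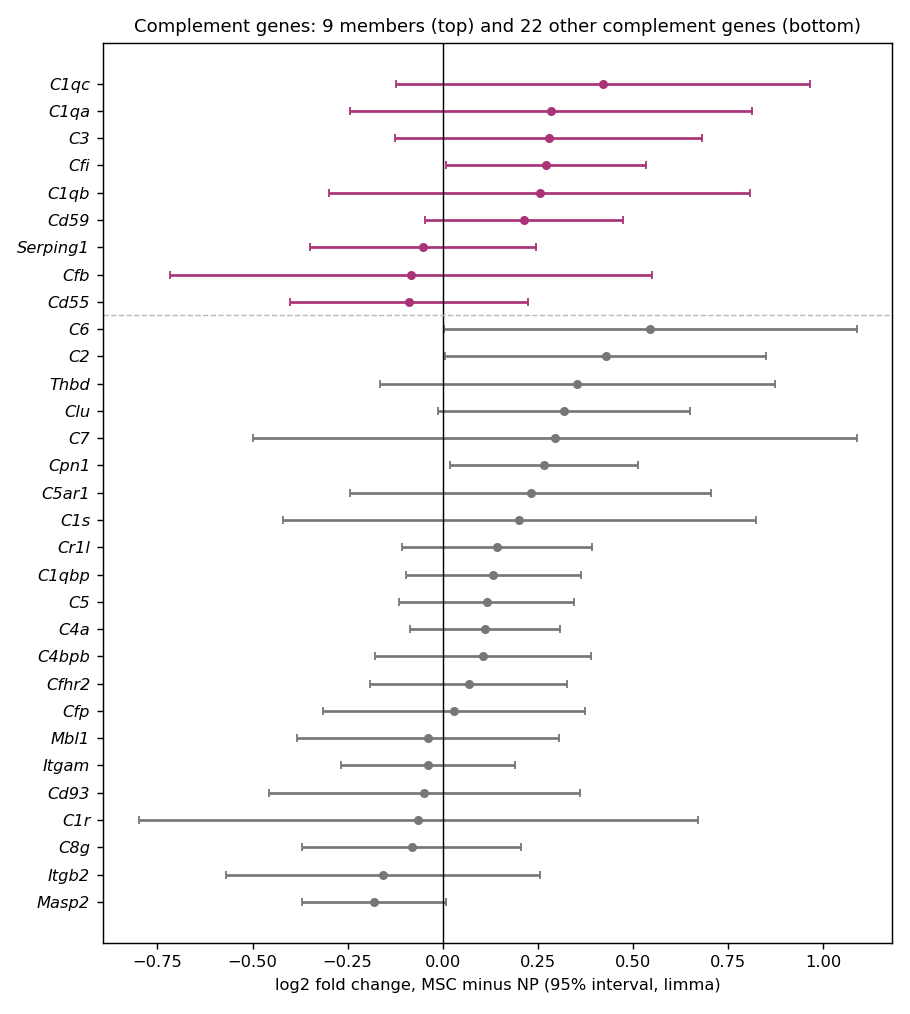
Log2 fold change of MSC over NP kidneys (x axis) with its 95% interval from limma (bars) for the 9 members (upper block) and other complement genes tested (lower block, without Cfd for its range). Of the members the interval of Cfi, from 0.01 to 0.53, lies above 0 before adjustment and the others include 0.

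The other complement genes were taken from lists of 56 names, of which 45 were on the array and 24 passed the filter. Of these 17 were higher and 7 lower in MSC kidneys, with a median log2 fold change of 0.12. None was called (0 of 24), and 3 had an unadjusted p under 0.05, all higher in MSC kidneys (C2, C6 and Cpn1). This was 12.5% of them, close to the 11.7% of all genes past that limit in either direction. The lowest FDR was 0.407 from limma. Among genes on the array, Masp1, Mbl2, Fcnb and Fcn1 of the lectin pathway, C8a, C8b and C9 of the terminal pathway and the anaphylatoxin receptors C3ar1 and C5ar2 did not pass the filter. With a looser filter that kept probes well above background on at least 4 arrays, 5 of 33 complement genes (15.2%) had an unadjusted p under 0.05, against 11% of all 17133 genes tested there, with an FDR of 0.333 or more from limma. These were C2, Cpn1 and C5ar2 (0.15), which were higher in MSC kidneys, and Fcnb, a ficolin of myeloid cells (-0.96), and Masp2, a lectin pathway protease (-0.18), which were lower. C6 then had an unadjusted p of 0.0508. The neutrophil markers S100a8 and S100a9 had log2 fold changes of -0.85 and -0.95. Both had an unadjusted p under 0.05 and an FDR of 0.395 or more from limma. They were lowest in MSC replicate 1 (7.99 and 8.30), while MSC replicate 2 (10.05 and 10.86) lay within the NP range. The part of these markers in the Fcnb value was not tested.

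In the classical and lectin list 3 of 6 genes tested were higher (median 0.04). C2, which supplies the protease of the classical convertase, had 9.41, 8.84, 8.70, 8.93 and 9.15 in the NP and 9.22, 9.10, 9.92 and 9.51 in the MSC kidneys. MSC replicates 3 and 4 were above all NP kidneys. For C2 the log2 fold change was 0.43 (SE 0.19, limma FDR 0.421), and 0.34 on its other probe. It was 0.27 without MSC replicate 3, 0.17 within slide 1 and 0.67 within slide 2. C4a, the classical component cleaved by C1s, had a log2 fold change of 0.11, and of 0.07 without NP replicate 1 or without MSC replicate 3.

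In the terminal list 3 of 4 genes were higher (median 0.20). C6, a component of the membrane attack complex, had 9.11, 9.22, 8.93, 8.84 and 8.92 in the NP and 9.06, 9.37, 10.44 and 9.31 in the MSC kidneys. MSC replicate 3 stood above all others. C6 was higher by 0.55 in MSC kidneys (SE 0.24, limma FDR 0.425), and by 0.25 without MSC replicate 3. C5, the precursor of the anaphylatoxin C5a, had 0.11. The value for C5 was 0.07 without NP replicate 3 or MSC replicate 3 and 0.19 without MSC replicate 4. It was 0.21 within slide 1 and -0.00044 within slide 2.

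Of the fluid phase regulators 5 of 5 tested were higher (median 0.27). Cpn1, the catalytic subunit of carboxypeptidase N, which trims the anaphylatoxins, had 9.58, 9.59, 9.73, 9.89 and 10.05 in the NP and 10.00, 9.98, 10.16 and 9.98 in the MSC kidneys. Only NP replicate 5 reached the MSC values. It had a log2 fold change of 0.27 (SE 0.11, limma FDR 0.407), with 0.36 within slide 1 and 0.10 within slide 2. Clu, clusterin, an inhibitor of the terminal complex and also a marker of injured tubules, had 0.32 (0.21 without NP replicate 3). Among membrane regulators Thbd, thrombomodulin, had 0.35 (0.22 without NP replicate 3 and 0.55 without NP replicate 2) and Cr1l, the rodent regulator Crry, 0.14 on 1 probe (0.08 without NP replicate 3) and 0.06 on the other, and neither had an unadjusted p under 0.05 over all arrays. In the receptor list 2 of 5 genes were higher (median -0.04). C1qbp, which binds the globular heads of C1q, had 0.13.

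Cfd, factor D or adipsin, cleaves factor B and is made mostly by fat cells, and it was also on the list of markers of fat around the kidney. Its log2 intensities were 11.81, 9.59, 11.16, 9.01 and 8.67 in the NP and 8.66, 11.59, 14.34 and 13.67 in the MSC kidneys. MSC replicates 3 and 4 were above all other arrays, and MSC replicate 1 was the lowest. Its log2 fold change was 2.02 (SE 1.11, limma FDR 0.502) over all arrays, and -0.73 within slide 1 and 5.17 within slide 2. With 1 array left out it ran from 1.26 (without MSC replicate 3) to 3.15 (without MSC replicate 1, unadjusted p 0.00447 and FDR 0.513 from limma). Without MSC replicates 3 and 4, an alternative chosen after the data were seen, it was 0.08.

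The fat score, over 9 of 14 listed markers, ran from -0.95 to 0.07 in the NP kidneys and was -1.02, -0.01, 1.93 and 1.28 in MSC replicates 1 to 4. Lep, Plin1 and Lipe did not pass the filter, and Cfd is itself in the score. C2 was highest on the same 2 arrays as the fat score, and C6 was highest on MSC replicate 3. Without both arrays the log2 fold changes were 0.15 for C2 and 0.21 for C6, and 0 of the other complement genes had an unadjusted p under 0.05. Among the members the log2 fold changes were then 0.13 for C1qa, 0.29 for C1qb, 0.39 for C1qc, 0.20 for C3, 0.35 for Cfi, 0.33 for Cd59 and -0.51 for Cfb, with an FDR of 0.766 or more from limma. The part of fat tissue in these values was not tested.

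**Figure D4:**
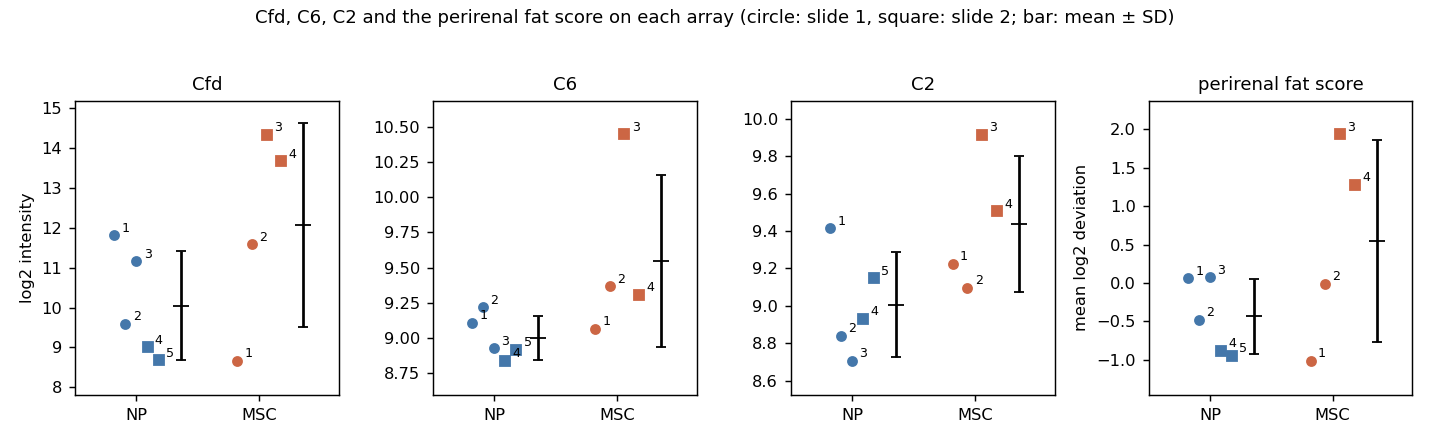
Log2 intensity of Cfd, C6 and C2 and the perirenal fat score, a mean log2 deviation (y axes, which differ), in each NP and MSC kidney (x axes), with replicate numbers, circles for slide 1, squares for slide 2 and bars for mean ± SD. MSC replicates 3 and 4 have the highest fat scores, 1.93 and 1.28, and the highest values of Cfd and C2.

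Another set of complement genes, chosen after their values were seen, varied widely between the NP kidneys. C1r and C1s, the proteases of C1, and C7 of the terminal pathway had their highest NP value in replicate 2 and their lowest in replicate 1. C7 had 12.66, 14.69, 13.45, 13.66 and 13.65 in the NP and 14.10, 13.36, 14.43 and 13.78 in the MSC kidneys. Their log2 fold changes were -0.06 for C1r, 0.20 for C1s and 0.29 for C7 (and -0.07 on its other probe). With 1 array left out they ran from -0.26 (without NP replicate 1) to 0.17 (without NP replicate 2 or MSC replicate 2) for C1r, from 0.01 (without NP replicate 1) to 0.40 (without MSC replicate 2) for C1s and from 0.05 (without NP replicate 1) to 0.56 (without NP replicate 2) for C7. For C7 the value was -0.09 with normexp, -0.06 with background-subtracted signals scaled to the 75th percentile, -0.03 with 75th percentile scaling and -0.07 with median scaling. The probe of largest variance was chosen anew for each of these C7 values, and a change of probe was not tested. C1s was -0.01 without MSC replicates 3 and 4. Over 28 alternatives C1s was positive in 27, C7 in 24 and C1r in 3, and none of these genes had an unadjusted p under 0.05 in the 26 of them that gave a limma test. The score of 8 stromal markers was -0.77 in NP replicate 1 and 0.75 in NP replicate 2, the lowest and highest of the 9 arrays. The C1q chains and C3 were higher in NP replicate 1 than in NP replicate 2. The part of stromal cells was not tested.

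The other marker lists gave the following values. Of 6 leukocyte genes tested 1 was higher in MSC kidneys (median log2 fold change -0.19), and 2 were lower at an unadjusted p under 0.05 (S100a8 and S100a9), while 10 of 12 macrophage genes were higher. Leukocyte scores ran from -0.61 to 0.18 in the MSC and from -0.21 to 0.28 in the NP kidneys. Of 6 red cell genes 5 were lower in MSC kidneys at an unadjusted p under 0.05 (median log2 fold change -1.65). Red cell scores were -2.33, 0.49, -1.04 and 0.08 in the MSC and 0.09 to 0.95 in the NP kidneys, so that MSC replicate 1 was the lowest and MSC replicate 2 lay within the NP range. The injured tubule list had a median of 0.29 with 8 of 11 genes higher, 2 at an unadjusted p under 0.05 (Krt8 and Vim). The bone marrow stromal cell list had a median of 0.06 (4 of 6 higher), with Thy1 and Itga5 not past the filter. Of 8 stroma genes 4 were higher, with Col1a1 at an unadjusted p under 0.05, and of 9 endothelium genes 6 (0 at that limit). Of 10 kidney genes 6 were higher, 3 of them past that limit, and 6.59% of all genes were past it in the same direction. Of 10 genes for liver plasma proteins 5 did not pass (Alb, Apoa1, Fgg, Serpina1 and Ttr). The part of these in the complement values was not tested.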

How the data were processed

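RNA of 9 rat kidneys was labelled with Cy3 and hybridized to 1-colour Agilent arrays. The raw intensity of each spot was deposited by the authors as Agilent Feature Extraction gave it. The authors also deposited normalized log2 values, 1 per probe. These cover 30507 probes with all 30367 gene probes, so the expression filter of the methods had not been applied to them. No column of values per sample was left unused (0).

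Mean pixel intensities were log2 transformed without background subtraction and normalized by cyclic loess (limma 3.58.1 in R 4.3.3). Control spots and flagged outliers were left out. Probes were kept when their log2 value exceeded 1.1 times the 95th percentile of the log2 negative controls on at least 4 arrays (15635 probes), 1 reading of the methods' filter. Spots of a probe were averaged and the probe of largest variance was kept for each gene, leaving 13769 genes. MSC and NP were compared with lmFit and eBayes, with Benjamini-Hochberg FDR over all genes. The exact two-sided permutation test ran over all 126 splits of the 9 arrays (smallest p 0.00794) and takes no account of the slide. The p-values set each difference against the spread between kidneys of 1 experiment, and the FDR adjusts the limma p-values over all genes. The number of arrays limits the precision.

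The members and lists were chosen with earlier results of these data known. Besides the members, the text names complement genes with an unadjusted p under 0.05 or no overlap, in each list the gene with the smallest p and the brightest, and the 5 genes most like the C1q chains, C3 and Cd55. Some genes that these rules or lists name are not reported here. Probe positions and gene names are those of the files. All 9 member accessions matched RefSeq, and 1 has another name there. The steps were tested on simulated data. Alternatives changed the intensity column, background, normalization, filter, choice of probe, variance model, slide and replicate blocks, left out each array, and used the deposited log2 values.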

Additional observations from a re-analysis of the deposited data

Results flagged for a closer look

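In 58 groups of 4 or 5 arrays (members, other complement genes and marker scores), 3 held an array far from the others by Dixon's ratio of the gap to the range, where chance flags about 1 in 20, or 2.9 of 58. None was a member (0). For Cpn1, MSC replicate 3 was the highest MSC array with a ratio of 0.879. For the leukocyte score, NP replicate 3 was the lowest NP array with a ratio of 0.801, and for the score of liver plasma proteins NP replicate 1 was the lowest with 0.773.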

How the results depend on the processing

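No member and no other complement gene was called under any alternative run (0 in each). C1qa, C1qb, C1qc, C3 and Cfi were higher in MSC kidneys in 28 of 28 alternatives, Cd59 in 27. Each of these genes has 1 probe, so that filters, choice of probe and variance model could not change the direction. The other alternatives reuse the same arrays. Leaving out 1 array at a time gave log2 fold changes of 0.13 to 0.42 for C1qa, 0.13 to 0.46 for C1qb, 0.28 to 0.62 for C1qc, 0.17 to 0.42 for C3, 0.20 to 0.35 for Cfi, 0.14 to 0.28 for Cd59, -0.17 to 0.034 for Cd55, -0.27 to 0.24 for Cfb and -0.12 to 0.033 for Serping1. The sign turned without MSC replicate 4 for Cd55 (0.034), without NP replicate 2 (0.026) or MSC replicate 2 (0.24) for Cfb, and without NP replicate 2 for Serping1 (0.033).

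Within slide 1 and slide 2 the values were 0.16 and -0.40 for Cd55, 0.39 and -0.00016 for Cd59, and -0.59 and 0.46 for Cfb. Serping1 was 0.19 within slide 2 and 0.10 with array weights. Cd55 was 0.032 without MSC replicates 3 and 4, an alternative chosen after seeing the data. The cause was not tested.

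Members at an unadjusted p under 0.05 (1 in the reported fit) numbered 0 with quantile normalization, median scaling, trend and robust variances and without MSC replicates 3 and 4, 2 with array weights, and 0 to 4 when 1 array was left out (4 without NP replicate 1, 2 without MSC replicate 4). Other complement genes (3 in the reported fit) numbered 5 with the filter on well above background spots, with the linear filter and with array weights, 0 without MSC replicates 3 and 4, and 0 to 4 when 1 array was left out (0 without NP replicate 3 or MSC replicate 3, 1 without NP replicate 1 or MSC replicate 4). The share of all genes past that limit was 11.7% in the reported fit and 16.7% without NP replicate 1. It was 11% with the filter on well above background spots. For the other alternatives the share was not taken, so that their counts cannot be read as results about these genes. Median scaling moved the median of all genes by less than 0.1, to -0.04, with 40.7% of genes higher.

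The replicate numbers were not shown to pair the kidneys (r of deviations of same-numbered arrays 0.20, 0.33, -0.35 and 0.05). With the replicate block 0 members and 1 other complement gene had an unadjusted p under 0.05, and the share of all genes was not taken there.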
